A study of Mus musculus with 4 samples.

Results

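The genes described here are 10 factors through which macrophages are known to act on blood vessels: Vegfa, Vegfb, Vegfc, Pgf, Pdgfb, Hgf, Hbegf, Plau, Plaur and Ang. They were taken as a named list, chosen with earlier results of these data known. All 10 had a row in both deposited gene tables, which together held 17532 genes. Expression was measured by RNA sequencing in CX3CR1+ macrophages sorted from the periosteum, the fibrous layer that covers bone and feeds vessels into the cortex. There were 4 libraries, 1 for each group: CX3CR1+CD74+ cells with periostin, CX3CR1+CD74+ cells with vehicle, CX3CR1+ACE+ cells with periostin and CX3CR1+ACE+ cells with vehicle. All cells came from wild-type male C57BL/6 mice at postnatal day 28, were sorted as CD45+CX3CR1+ cells, and were kept in serum-containing medium with 10 ng/ml M-CSF, the growth factor that keeps macrophages alive. Periostin, a secreted matrix protein of the periosteum, was the recombinant mouse protein at 500 ng/ml, vehicle was PBS, and both lasted 24 h. The number of mice behind each library is not stated in the labels, and the ACE+ and CD74+ gates are not stated to exclude each other.

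Vessels grow when endothelial cells receive secreted ligands and can loosen the matrix around them. VEGF-A acts through the receptors VEGFR1 and VEGFR2 with neuropilins as co-receptors, VEGF-B and placental growth factor bind VEGFR1, and VEGF-C acts mainly on lymphatic vessels through VEGFR3. PDGF-BB, encoded by Pdgfb, recruits the mural cells that wrap new capillaries, and hepatocyte growth factor and heparin-binding EGF-like growth factor act through the receptors MET and EGFR. Plau encodes urokinase, the protease that turns plasminogen into plasmin, and Plaur encodes the receptor that holds it at the cell surface. Ang encodes angiogenin, a secreted ribonuclease that promotes vessel growth.

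Recovered reads came to 11846312 for CD74+ cells with periostin, 16650349 for CD74+ cells with vehicle, 19798150 for ACE+ cells with periostin and 15471245 for ACE+ cells with vehicle. Levels are scaled reads per 1000000 (CPM) on 1 scale for all 4 libraries, and 1 read was worth between 0.0491 and 0.0897 CPM. A change is a log2 difference after adding 1 CPM to both levels, and a gene is said to have risen or fallen within a pair of libraries when that change reached 2-fold. A ratio is given without the added CPM, with its exact 95% interval from the reads, which covers counting error alone. With 1 library per group, no difference within a subset or within a treatment has replicates behind it or a test, and variation between cultures cannot be told apart from the treatment. Of 10 macrophage marker genes, all were detected in every library, and they summed to between 7185 and 8153 CPM. Neutrophil markers summed to between 12750 and 28209 CPM, endothelial markers to between 498 and 977 CPM, and chondrocyte markers to between 253 and 1301 CPM. Ace, a sorting marker, was highest in a library of the other subset. It had 9.51 CPM with periostin and 0.897 CPM with vehicle in CD74+ cells, against 2.80 CPM with periostin and 2.76 CPM with vehicle in ACE+ cells. Cd74 was higher in the subset sorted for it. It had 1222 CPM with periostin and 850 CPM with vehicle in CD74+ cells, against 552 CPM with periostin and 531 CPM with vehicle in ACE+ cells. Ptprc, the CD45 gene, had 363 to 618 CPM and Cx3cr1 14.5 to 21.7 CPM over the 4 libraries. In bulk samples of this kind, fewer cells of a type and less RNA per cell cannot be told apart.

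Promoter windows of 300 bases, 250 before and 50 from the RefSeq start, were given for 7 of the 10 genes (RefSeq, GRCm38.p6). Shown are those of Ang, the gene with the largest change with periostin, and of Plaur and Vegfa, the genes that differed between the subsets in a test. Capitals mark matches, on either strand, to the motifs searched: the hypoxia response cores ACGTG and GCGTG, AP-1 TGANTCA, the NF-kB motif, SP1 GGGCGG and EGR1 GCGGGGGCG.
Ang, chr14:51090827-51091126, plus strand: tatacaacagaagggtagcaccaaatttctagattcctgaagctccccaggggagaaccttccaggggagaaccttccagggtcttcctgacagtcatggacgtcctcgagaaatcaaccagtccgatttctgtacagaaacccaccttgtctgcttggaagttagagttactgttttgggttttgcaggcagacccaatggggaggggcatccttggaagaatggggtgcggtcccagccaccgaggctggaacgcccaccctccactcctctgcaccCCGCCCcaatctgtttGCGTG
Plaur, chr7:24462233-24462532, plus strand: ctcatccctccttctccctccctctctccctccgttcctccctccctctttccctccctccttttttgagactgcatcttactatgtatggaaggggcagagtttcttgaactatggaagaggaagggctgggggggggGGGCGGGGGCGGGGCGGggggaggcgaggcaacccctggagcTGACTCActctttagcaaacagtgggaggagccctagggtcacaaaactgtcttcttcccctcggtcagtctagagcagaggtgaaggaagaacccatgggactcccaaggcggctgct
Vegfa, chr17:46032328-46032627, minus strand: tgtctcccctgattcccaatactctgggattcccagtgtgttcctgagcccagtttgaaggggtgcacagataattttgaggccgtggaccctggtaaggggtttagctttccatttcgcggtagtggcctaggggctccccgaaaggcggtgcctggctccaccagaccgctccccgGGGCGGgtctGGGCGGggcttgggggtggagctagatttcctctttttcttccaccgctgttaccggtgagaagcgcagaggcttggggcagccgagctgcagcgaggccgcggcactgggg

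Counted from the RefSeq start as base 1, the Ang window held the SP1 motif at 30 and GCGTG at 46, both downstream of that start. The gene coordinates of Ang given below begin at 51091150, past the end of this window at 51091126. By those coordinates both motifs lie upstream of the gene. The Plaur window held 3 SP1 motifs at -111, -105 and -100, the EGR1 motif at -109, which overlaps them, and the AP-1 motif at -69. The Vegfa window held 2 SP1 motifs, at -72 and -62. A second RefSeq start of Vegfa, inside the gene, had a window with ACGTG at -211, GCGTG at -218 and SP1 at -158. Among all 32851 mouse promoter windows of this length, 35.7% held the SP1 motif, 32.4% GCGTG, 19.6% ACGTG, 7.81% the AP-1 motif, 2.91% the EGR1 motif and 0.411% the NF-kB motif. These matches are descriptions of letters and not sites of binding. The Ang window is also a RefSeq window of Rnase4, a neighbouring ribonuclease gene.

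Plaur was by far the most abundant of the 10 transcripts per unit length, and Vegfc, Hgf and Ang were the least abundant. Per kilobase of the deposited gene length, Plaur had 269.5 CPM with periostin and 222.8 CPM with vehicle in CD74+ cells, and 137.8 CPM with periostin and 135.3 CPM with vehicle in ACE+ cells. This placed it between the 97.6th and the 98.5th percentile of all listed genes. The deposited length lay well below the annotated exon bases for some genes, such as Plaur (1396 against 2617), Pgf (1582 against 2903), Hgf (2755 against 7186) and Hbegf (2373 against 4834). For Plau (2343 against 2367) it did not. Places and shares per kb therefore depend on the length used. Plau, Pdgfb, Vegfa and Vegfb filled the next places in each library, at 9.78 to 38.4 CPM per kb. Pgf and Hbegf followed at 5.63 to 9.49 CPM per kb, and Vegfc and Hgf at 2.77 to 4.71. Ang stood last in 3 of the 4 libraries, with 0.443 to 1.43 CPM per kb there and 3.10 in CD74+ cells with periostin, where Hgf was last. Some neighbours in this order lay too close for their places to be read as an order, such as Vegfc and Hgf in CD74+ cells with periostin at 2.86 and 2.77 CPM per kb. Vegfa held 42.4% with periostin and 32.4% with vehicle of the summed VEGF and placental growth factor ligands per kb in CD74+ cells, and 46.2% with periostin and 45.1% with vehicle in ACE+ cells.

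**Figure D1:**
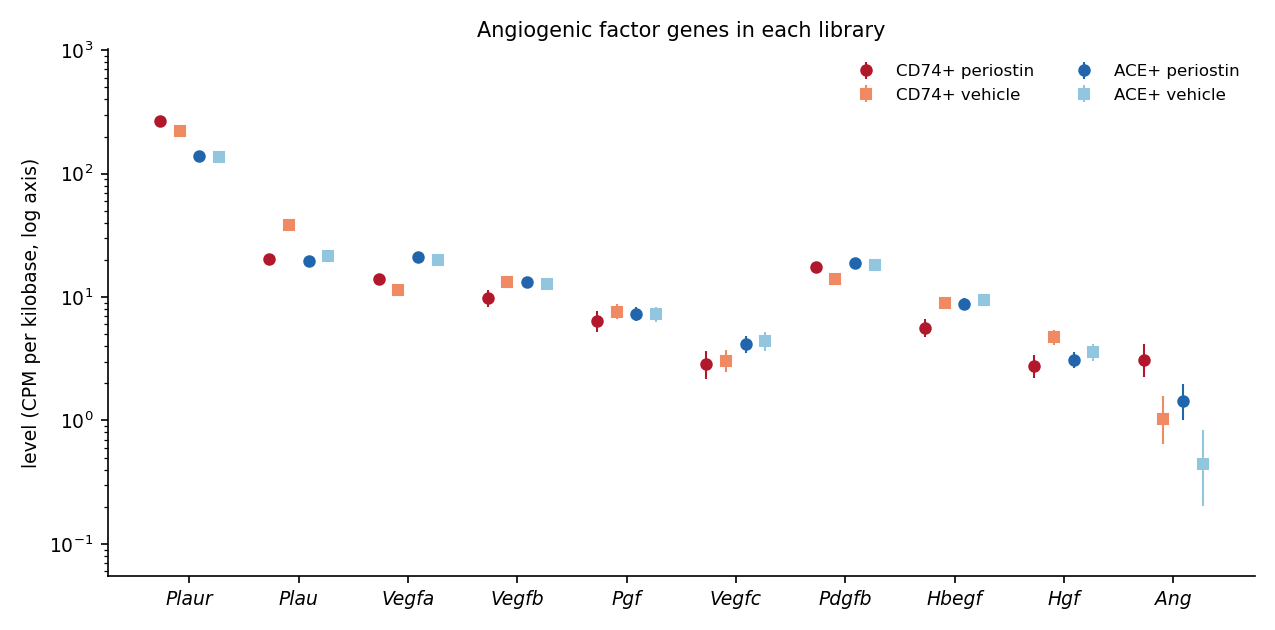
Level of each of the 10 genes in the 4 libraries, in CPM per kilobase of gene length on a log axis, with 1 point per library, no replicates, and bars for the exact 95% Poisson interval of the reads. Plaur lies above the other 9 genes in every library, and Ang reaches its highest value, 3.10 CPM per kb, in CD74+ cells with periostin.

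In CD74+ cells urokinase was lower and its receptor higher with periostin, neither by 2-fold, and the receptor's direction turned relative to genes of its length (given with the length trend). Plau (chromosome 14, 20836660 to 20843385, plus strand; gene coordinates here are GRCm38), the urokinase gene, had 47.5 CPM with periostin and 89.9 CPM with vehicle in CD74+ cells, from 529 and 1503 reads. The ratio was 0.528 (0.477 to 0.583) and the log2 change -0.91, short of 2-fold. Plaur (chromosome 7, 24462484 to 24475968, plus strand), the urokinase receptor gene, had 376 CPM with periostin and 311 CPM with vehicle in the same cells, a ratio of 1.21 (1.16 to 1.26). Receptor over protease per kb of deposited length was therefore 13.3 with periostin and 5.81 with vehicle. In reads, without a length, it was 7.93 with periostin and 3.46 with vehicle. In ACE+ cells both ratios lay near 1. There Plau had 45.9 CPM with periostin and 50.7 CPM with vehicle, a ratio of 0.905 (0.823 to 0.996), and Plaur had 192 CPM with periostin and 189 CPM with vehicle, a ratio of 1.02 (0.971 to 1.07). Receptor over protease per kb in ACE+ cells was 7.04 with periostin and 6.26 with vehicle. The CD74+ vehicle library held the highest Plau level of the 4, and the other 3 lay between 45.9 and 50.7 CPM.

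None of the 4 VEGF-family ligands reached 2-fold with periostin in either subset. Vegfa (chromosome 17, 46016993 to 46032369, minus strand), the main driver of endothelial sprouting, had 60.1 CPM with periostin and 49.1 CPM with vehicle in CD74+ cells, a ratio of 1.22 (1.10 to 1.36). In ACE+ cells it had 91.1 CPM with periostin and 85.8 CPM with vehicle, a ratio of 1.06 (0.989 to 1.14). Both ACE+ libraries lay above both CD74+ libraries. Vegfb (chromosome 19, 6982473 to 6987651, minus strand), a VEGFR1 ligand, had 15.7 CPM with periostin and 21.1 CPM with vehicle in CD74+ cells, a ratio of 0.744 (0.617 to 0.894), so that Vegfa over Vegfb per kb was 1.43 with periostin and 0.870 with vehicle. In ACE+ cells Vegfb had 21.3 CPM with periostin and 20.3 CPM with vehicle, a ratio of 1.05 (0.907 to 1.22). Its lowest level was thus in CD74+ cells with periostin, and the other 3 libraries lay close together.

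Pgf (chromosome 12, 85166635 to 85177790, minus strand), the placental growth factor gene, had 10.0 CPM with periostin and 12.1 CPM with vehicle in CD74+ cells, a ratio of 0.832 (0.654 to 1.05). Its level in ACE+ cells was 11.5 CPM with either treatment, a ratio of 1.00 (0.821 to 1.22). Vegfc (chromosome 8, 54077606 to 54187096, plus strand), the lymphatic ligand, had 5.38 CPM with periostin and 5.74 CPM with vehicle in CD74+ cells and 7.80 CPM with periostin and 8.22 CPM with vehicle in ACE+ cells. The intervals of both Vegfc ratios held 1, as did those of Pgf, so no difference with periostin was detectable in these 2 genes at this depth.

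Pdgfb (chromosome 15, 79995874 to 80014977, minus strand), which encodes the ligand that attracts pericytes, had 51.3 CPM with periostin and 40.8 CPM with vehicle in CD74+ cells, a ratio of 1.26 (1.12 to 1.41). In ACE+ cells it had 55.5 CPM with periostin and 53.3 CPM with vehicle, a ratio of 1.04 (0.953 to 1.14). The CD74+ vehicle library was the lowest of the 4. Hgf (chromosome 5, 16553495 to 16620152, plus strand), the MET ligand, had 7.63 CPM with periostin and 13.0 CPM with vehicle in CD74+ cells, a ratio of 0.588 (0.452 to 0.759). In ACE+ cells Hgf had 8.59 CPM with periostin and 9.85 CPM with vehicle, a ratio of 0.872 (0.699 to 1.09). The CD74+ vehicle library held its highest level, and 6.74% of its annotated exon bases lie in Gm43489, a predicted transcript. Hbegf, an EGFR ligand on chromosome 18, had 13.4 CPM with periostin and 21.3 CPM with vehicle in CD74+ cells, a ratio of 0.626 (0.514 to 0.760), and 21.0 CPM with periostin and 22.5 CPM with vehicle in ACE+ cells, a ratio of 0.935 (0.810 to 1.08). As with Vegfb, the CD74+ periostin library was the low one of the 4.

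Ang (chromosome 14, 51091150 to 51102009, plus strand) was the only one of the 10 genes to reach 2-fold with periostin, and it did so in CD74+ cells. It rose to 3.95 CPM with periostin, against 1.32 CPM with vehicle, a log2 change of 1.10 and a ratio of 3.0 (1.76 to 5.26). In ACE+ cells it had 1.82 CPM with periostin and 0.565 CPM with vehicle, a ratio of 3.22 (1.52 to 7.58). The log2 change there was 0.85, short of 2-fold once 1 CPM was added to such low levels. With 5 CPM added to both levels the log2 change was 0.50 in CD74+ cells, short of 2-fold, and with 0.1 CPM added it was 1.53 in ACE+ cells, past it. The reads behind these values were few, 44 with periostin and 22 with vehicle in CD74+ cells and 37 with periostin and 9 with vehicle in ACE+ cells. Ang shares 18.2% of its annotated exon bases with Rnase4 on the same strand, and the labels do not say how the authors' counting treated such reads. Rnase4 had 3.41 CPM with periostin and 4.25 CPM with vehicle in CD74+ cells, a ratio of 0.803 (0.527 to 1.21), and 3.53 CPM with periostin and 3.51 CPM with vehicle in ACE+ cells. The paralogs Ang2 to Ang6 had no row in either table, so reads split between near-identical copies could not be examined. Rnh1, which encodes the cytoplasmic inhibitor of angiogenin, had 1094 CPM with periostin and 1153 CPM with vehicle in CD74+ cells and 592 CPM with periostin and 597 CPM with vehicle in ACE+ cells.

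The genes whose centred log2 levels over the 4 libraries lay nearest to those of Ang, among 10922 genes with at least 5 CPM in their highest library, were Zfp947, Alkbh4 and Cables1, at Euclidean distances of 0.11, 0.12 and 0.13. Alkbh4 had 24.1 CPM with periostin and 10.6 CPM with vehicle in CD74+ cells and 13.7 CPM with periostin and 7.72 CPM with vehicle in ACE+ cells. A likeness over 4 libraries is a description.

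**Figure D2:**
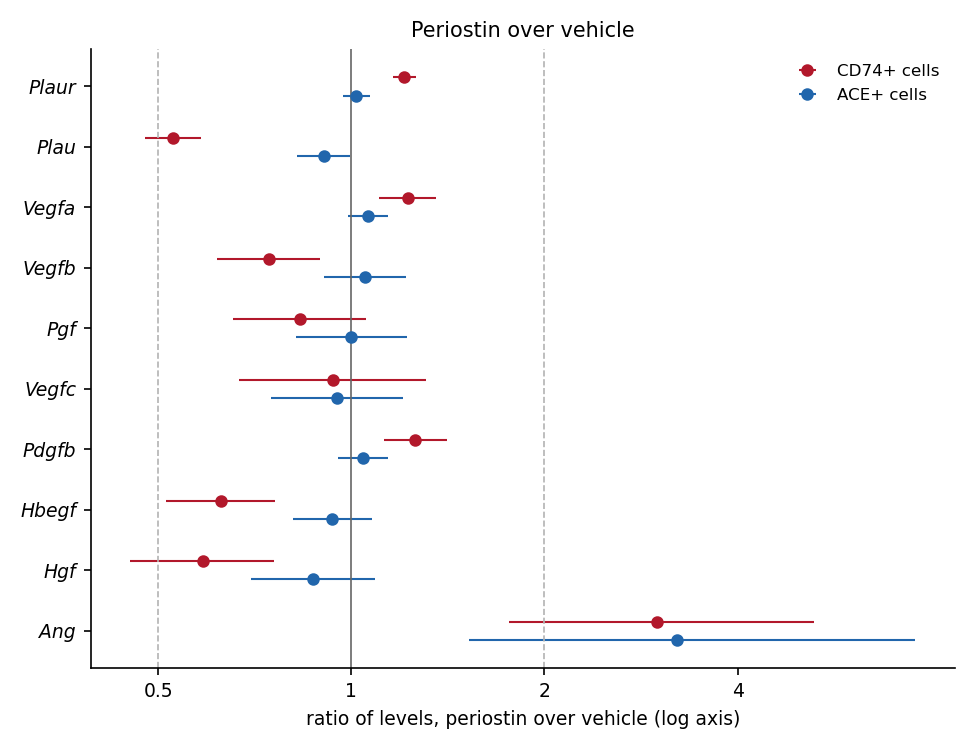
Ratio of each gene's level with periostin over vehicle in CD74+ and ACE+ cells, on a log axis, with bars for the exact 95% counting interval of 1 library against 1. Plau, Hgf and Hbegf lie between 0.528 and 0.626 in CD74+ cells and between 0.872 and 0.935 in ACE+ cells, and Ang lies near 3 in both.

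Across the 10 genes in CD74+ cells, 4 were higher and 6 lower with periostin, with 1 risen and none fallen. Among all 13865 genes compared, 51.4% were higher and 48.6% lower, and 6.69% rose and 5.25% fell, so 1 gene of 10 is near the background. The excess of risen over fallen genes in the whole table turned with other settings. It was 928 risen and 728 fallen, but 780 risen and 871 fallen when scaled to total reads, and 685 and 789 relative to length deciles. With a filter of at least 5 CPM it was 436 risen and 546 fallen, with 5 CPM added 126 and 209, and with genes that the authors listed for the other subset alone included 1112 and 1401. The median log2 change of the 10 genes was -0.16, against 0.02 over all genes, and their median absolute change was 0.36, against 0.37. The counting interval of the ratio excluded 1 for 8 of the 10, which is also the case for 68.3% of all genes. In ACE+ cells, 6 were higher and 4 lower, none reached 2-fold, where among 14734 genes 50.6% were higher and 49.4% lower, and 1.47% rose and 1.3% fell. There the median log2 change was 0.01, and the median absolute change 0.08, against 0.19. The interval excluded 1 for 2 of the 10, Plau and Ang, against 50.7% of all genes.

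The response in CD74+ cells minus that in ACE+ cells was largest for Plau, at -0.77 on the log2 scale, followed by Hbegf at -0.54, Hgf at -0.52 and Vegfb at -0.47. For Pdgfb it was 0.27 and for Vegfa 0.20. No gene of the 10 differed by 2 on this scale, that is 4-fold, where 1.47% of 13129 genes did, and none by 1, where 12.7% did. With 1 library per group, no interaction could be tested. Pooling both subsets, a limma fit over all 13837 genes with subset as a block called 21 genes, or 0.152%, and none of the 10. This fit has 1 residual degree of freedom, takes its spread wholly from the trend over all genes, and counts a response that differs between the subsets as noise. Plau came nearest, at a log2 effect of -0.52 (SE 0.22), with an unadjusted p of 0.0155 and a Benjamini-Hochberg adjusted p of 0.553 in limma. For Ang the common effect was 0.97 (SE 0.51) with an adjusted p of 0.710. Quasi-likelihood tests in edgeR on the recovered reads called 20 genes, or 0.145%, and none of the 10, with 1 of them at an unadjusted p under 0.05 in either tool.

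Shorter genes tended to be higher with periostin in CD74+ cells, and this trend touches the values above. Across 13865 genes the Spearman correlation of the log2 change with gene length was -0.32, and the median change was 0.45 in the decile of the shortest genes and -0.28 in that of the longest. In ACE+ cells it was -0.09. The correlation with GC content was 0.11 in CD74+ cells and 0.24 in ACE+ cells. Genes are not independent replicates, and all share the same 2 libraries in each correlation. Set against the median of its own length decile, the change of Plaur in CD74+ cells was -0.02, since genes of its length had a median of 0.29. This rests on its deposited length of 1396 bases, where its annotated exon bases were 2617. The change of Ang was 0.80 and that of Plau -1.02, so on this scale Plau was the 1 gene past 2-fold and Ang was not. Hgf stood at -0.81, Hbegf at -0.75, Vegfb at -0.70, Pgf at -0.54, Vegfa at 0.35 and Pdgfb at 0.28. Set against the median of its GC decile, Pdgfb in CD74+ cells stood at 0.14, in place of 0.32. In ACE+ cells the small changes of Vegfb, Pdgfb, Pgf and Plaur turned sign on the GC scale, at -0.04, -0.04, -0.09 and -0.03. The part of length and GC content in the changes of single genes was not tested.

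**Figure D3:**
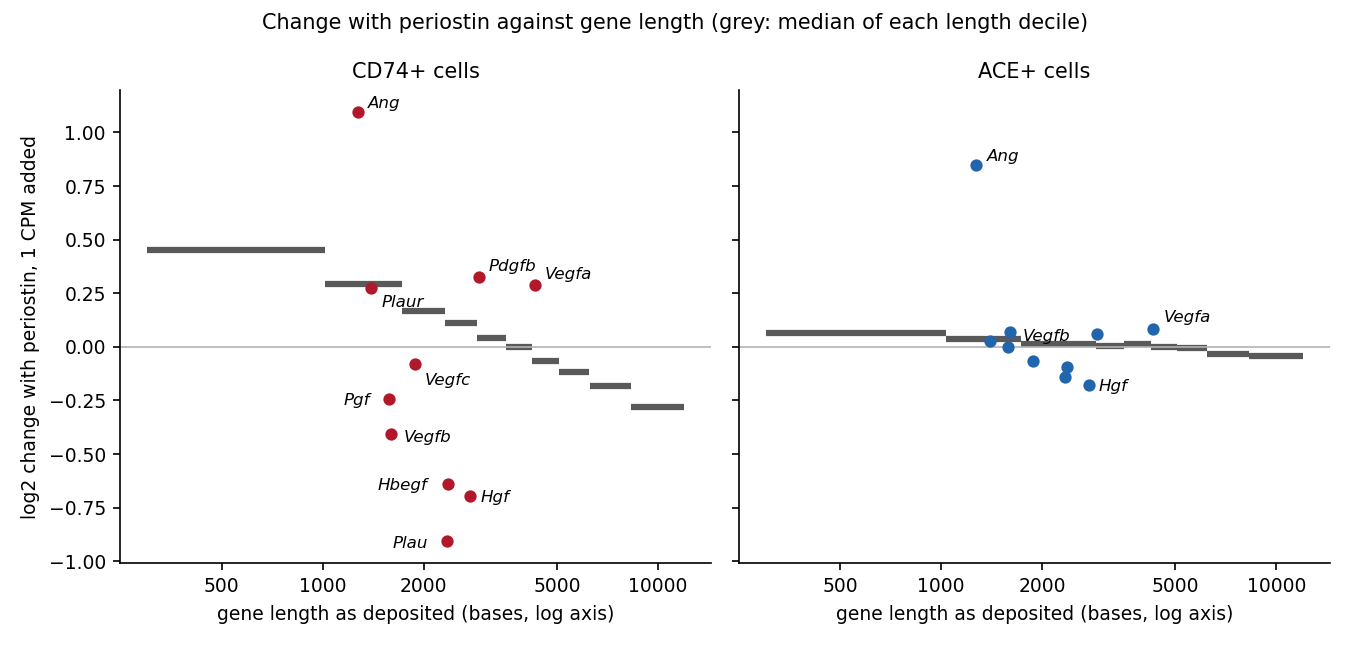
Log2 change with periostin (1 CPM added) against deposited gene length (log axis) for the 10 genes, in CD74+ and ACE+ cells, with grey lines for the median of all genes in each length decile, drawn from 300 to 12000 bases. In CD74+ cells the medians run from 0.45 to -0.28, Plaur lies on its median, and Plau, Hgf and Hbegf lie below theirs.

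Between the subsets, Plaur was higher and Vegfa lower in CD74+ cells. Plaur had 376 CPM in CD74+ cells and 192 CPM in ACE+ cells with periostin, a ratio of 1.96 (1.87 to 2.04), and 311 CPM in CD74+ cells and 189 CPM in ACE+ cells with vehicle, a ratio of 1.65 (1.57 to 1.72). Vegfa had 60.1 CPM in CD74+ cells and 91.1 CPM in ACE+ cells with periostin, a ratio of 0.660 (0.603 to 0.721), and 49.1 CPM in CD74+ cells and 85.8 CPM in ACE+ cells with vehicle, a ratio of 0.572 (0.524 to 0.624). For both genes the pairs of libraries did not overlap. The Spearman correlation of the CD74+ over ACE+ log2 change with gene length was -0.23 with periostin and -0.02 with vehicle. Set against the median of its length decile, Plaur stood at 0.81 with periostin, in place of 0.96. With vehicle Plaur stood at 0.73, in place of 0.72. Vegfa stood at -0.51 with periostin, in place of -0.59, and at -0.79 with vehicle on either scale. In the limma fit of the subset effect common to both treatments, Plaur differed by a log2 of 0.84 (SE 0.18, adjusted p = 4.27e-05) and Vegfa by -0.69 (SE 0.21, adjusted p = 0.0079), each in the same direction with both treatments. These 2 of 10 genes stand beside 16.0% of all 13837 genes called in that fit, 6.5% as higher and 9.5% as lower. In edgeR both genes were called too, with adjusted p of 0.000103 for Plaur and 0.0107 for Vegfa, beside 15.1% of all genes. The 2 libraries of a subset differ in treatment, and nothing says that they came from separate animals. The spread behind these p-values is the difference between the 2 subsets' periostin responses, as the trend over all genes gives it. They therefore cannot be read as measuring variation between animals.

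The other 8 genes did not pass that test. Plau came next, with a log2 of 0.43 and an adjusted p of 0.176 in limma. It had 89.9 CPM in CD74+ cells and 50.7 CPM in ACE+ cells with vehicle, a ratio of 1.77 (1.63 to 1.93), but 47.5 CPM in CD74+ cells and 45.9 CPM in ACE+ cells with periostin, a ratio of 1.03 (0.928 to 1.15) whose direction turned with 2 of the other scalings. Hbegf had a ratio of 0.635 (0.523 to 0.767) with periostin and 0.948 (0.816 to 1.10) with vehicle. Ang had ratios of 2.17 (1.37 to 3.46) with periostin and 2.33 (1.03 to 5.75) with vehicle, with log2 changes of 0.81 and 0.57 once 1 CPM was added. By the 2-fold rule none of the 10 genes differed between the subsets with periostin, where 6.94% of 13681 genes were higher and 10.4% lower in CD74+ cells. None did with vehicle either, where 3.64% of 13393 genes were higher and 7.73% lower.

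Markers of other cell types also differed between the subsets. The share of all genes lower or higher by any amount was not counted for these pairs. The median log2 change over all genes was 0.003 with periostin and -0.0008 with vehicle. All 10 fibroblast and osteogenic markers were lower in CD74+ cells, with sums of 302 CPM with periostin and 330 CPM with vehicle in CD74+ cells against 838 CPM with periostin and 1037 CPM with vehicle in ACE+ cells, and none at 0. Endothelial markers were lower for 9 of 10 genes with periostin and 8 of 10 with vehicle, with sums of 498 CPM with periostin and 580 CPM with vehicle in CD74+ cells against 977 CPM with periostin and 932 CPM with vehicle in ACE+ cells, and none at 0. All 11 neutrophil markers were lower as well, at sums of 20334 CPM with periostin and 12750 CPM with vehicle in CD74+ cells against 28209 CPM with periostin and 23383 CPM with vehicle in ACE+ cells. B-cell markers summed to 21.2 CPM with periostin and 25.2 CPM with vehicle in CD74+ cells, against 480 CPM with periostin and 570 CPM with vehicle in ACE+ cells, and Pax5 was at 0 in both CD74+ libraries. Osteoclast markers were lower for 8 of 9 genes with periostin and 7 of 9 with vehicle, and erythroid markers for 7 of 8 with periostin and 8 of 8 with vehicle. Chondrocyte markers were higher in CD74+ cells for 10 of 11 genes with periostin and 11 of 11 with vehicle. With vehicle 10 of these were at least 2-fold higher, beside 3.64% of all genes. Chondrocyte markers summed to 1012 CPM with periostin and 1301 CPM with vehicle in CD74+ cells, against 812 CPM with periostin and 253 CPM with vehicle in ACE+ cells. Of the 10 macrophage markers, 5 were higher and 5 lower in CD74+ cells with periostin, and 8 were higher and 2 lower with vehicle. They summed to 7185 CPM with periostin and 7277 CPM with vehicle in CD74+ cells, against 8153 CPM with periostin and 7662 CPM with vehicle in ACE+ cells. The part of any of these cells in the Plaur and Vegfa differences was not tested.

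**Figure D4:**
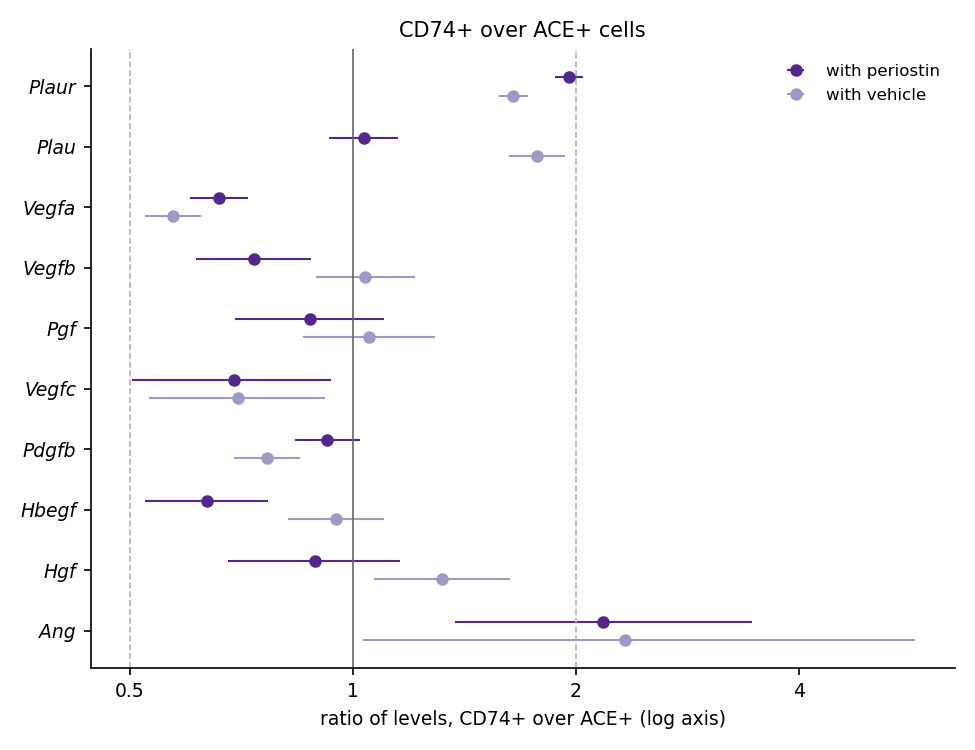
Ratio of each gene's level in CD74+ over ACE+ cells, with periostin and with vehicle, on a log axis, with bars for the exact 95% counting interval. Plaur lies above 1 and Vegfa below 1 with both treatments, and Plau lies above 1 with vehicle (1.77) but near it with periostin (1.03).

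The genes for the receptors of these ligands were mostly lower with periostin in CD74+ cells. Of 10 receptor genes listed, 9 had a row, 8 of these were lower and 1 higher, and 4 fell at least 2-fold, beside the 5.25% of all genes given above. Kdr, which encodes VEGFR2, fell to 29.1 CPM with periostin, against 70.0 CPM with vehicle, a ratio of 0.415 (0.366 to 0.470). Met, the receptor for hepatocyte growth factor, fell to 33.3 CPM with periostin, against 71.1 CPM with vehicle, a ratio of 0.468 (0.416 to 0.526). Egfr, the receptor for heparin-binding EGF-like growth factor, fell to 0.628 CPM, or 7 reads, with periostin, against 4.42 CPM with vehicle. Pdgfra, a PDGF receptor, fell to 3.41 CPM with periostin, against 8.61 CPM with vehicle, a ratio of 0.396 (0.269 to 0.569). The ligand Hgf and its receptor Met were thus both lower with periostin in CD74+ cells, as were Hbegf and Egfr.

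The median log2 change of the 9 receptor genes was -0.64 in CD74+ cells, against 0.02 over all genes, and -0.52 relative to length deciles, where 2 of the 9 were past 2-fold. In ACE+ cells no receptor gene reached 2-fold and their median was -0.07. Kdr and Met had the same ratio there, 0.759, at 38.6 CPM with periostin and 50.9 CPM with vehicle for Kdr and 34.4 CPM with periostin and 45.3 CPM with vehicle for Met. Flt1, which encodes VEGFR1, had 42.9 CPM with periostin and 48.3 CPM with vehicle in CD74+ cells and 38.7 CPM with periostin and 36.5 CPM with vehicle in ACE+ cells. Flt4, which encodes VEGFR3, was the 1 receptor gene higher in CD74+ cells, at 4.13 CPM with periostin and 2.27 CPM with vehicle. Pdgfra is also a fibroblast and osteogenic marker, and Kdr is also an endothelial marker. Of the 10 endothelial markers, 7 were lower and 3 higher with periostin in CD74+ cells, where 48.6% of all genes were lower. Their sums were 498 CPM with periostin and 580 CPM with vehicle. By 2-fold, 3 of them fell and 1 rose, beside 5.25% and 6.69% of all genes. Cdh5, which encodes VE-cadherin, had 14.1 CPM with periostin and 40.2 CPM with vehicle, and Pecam1 had 115 CPM with periostin and 105 CPM with vehicle. The part of endothelial cells in the Kdr change and of fibroblasts in the Pdgfra change was not tested. Chondrocyte markers were higher with periostin for 10 of 10 genes in ACE+ cells and 4 of 11 in CD74+ cells. In ACE+ cells 6 of these rose 2-fold, beside 1.47% of all genes. In the same order, neutrophil markers were higher for 11 of 11 and 8 of 11 genes. Erythroid markers were higher for 5 of 8 and 7 of 8 genes, beside 50.6% and 51.4% of all genes. The part of such cells in the periostin changes of the 10 genes was not tested.

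**Figure D5:**
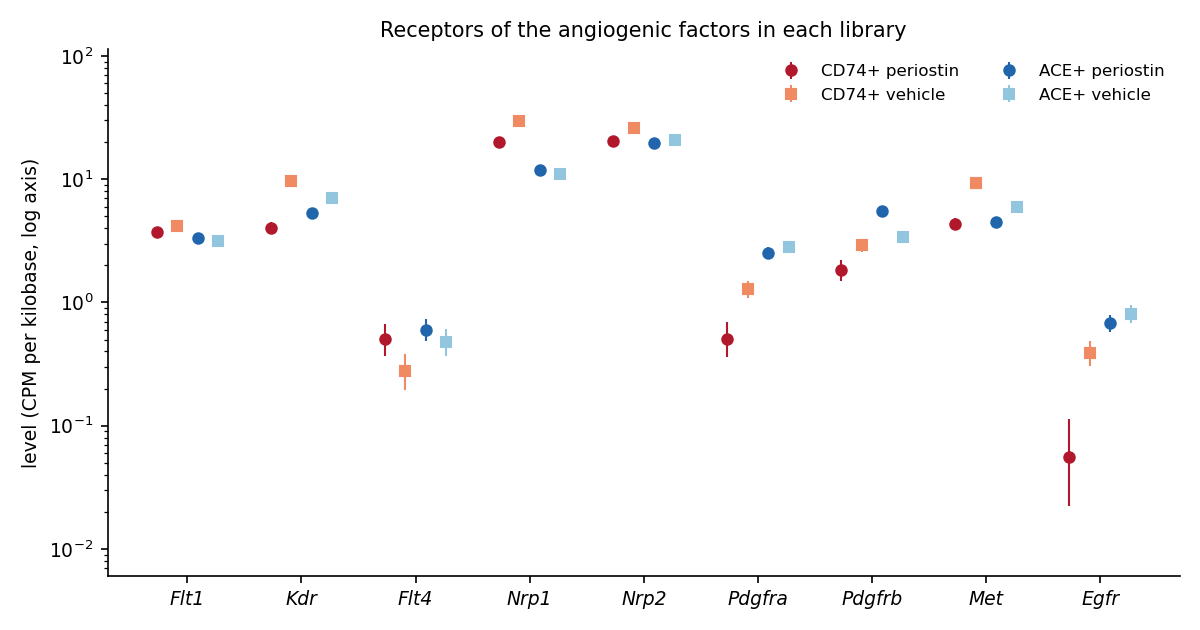
Level of the 9 receptor genes in the 4 libraries, in CPM per kilobase of gene length on a log axis, with 1 point per library and bars for the exact 95% Poisson interval of the reads. Kdr, Met, Pdgfra and Egfr have their lowest point in CD74+ cells with periostin.

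Other genes of the same pathways moved singly. Of 4 further VEGF and PDGF ligands, Pdgfc rose in CD74+ cells, to 7.36 CPM with periostin, against 3.17 CPM with vehicle, a ratio of 2.32 (1.62 to 3.34). Its log2 change was 1.00, at the limit, and relative to GC deciles no gene of that list reached 2-fold. Of 7 measured genes of plasminogen activation, Serpinb2, which encodes the urokinase inhibitor PAI-2, rose to 16.7 CPM with periostin, against 5.20 CPM with vehicle, a ratio of 3.21 (2.47 to 4.19). In ACE+ cells Serpinb2 had 30.7 CPM with periostin and 46.3 CPM with vehicle, a ratio of 0.662 (0.594 to 0.738). Lrp1, an endocytic receptor that clears urokinase complexes, had 381 CPM with periostin and 717 CPM with vehicle in CD74+ cells. None of 11 genes for growth factor processing past the filter and none of 8 genes of the HIF pathway reached 2-fold in either subset. Of 10 hypoxia-response targets, Car9, a carbonic anhydrase gene, rose to 5.29 CPM with periostin, against 0.897 CPM with vehicle, in CD74+ cells, and the list's median log2 change was -0.04.

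Of 10 further angiogenic ligands past the filter in CD74+ cells, Wnt5a rose to 3.05 CPM with periostin, against 1.02 CPM with vehicle, and Angptl4 fell to 2.15 CPM with periostin, against 5.68 CPM with vehicle. Fgf1, Fgf2 and Tgfa had no row for CD74+ cells. Their reads there were worked out from the deposited mean, taking 1 of the 2 libraries to be at 0. This gave 0 reads in CD74+ cells with periostin, which allows up to 0.269 CPM, and 0.0598, 1.26 and 0.478 CPM with vehicle. Of 9 angiogenesis inhibitors, Pf4, the platelet factor 4 chemokine gene, rose to 1058 CPM with periostin, against 492 CPM with vehicle, a ratio of 2.15 (2.09 to 2.21). Vash1, the vasohibin gene, rose to 2.15 CPM with periostin, against 0.538 CPM with vehicle, from 24 and 9 reads. Relative to length deciles neither reached 2-fold, with log2 changes of 0.65 for Pf4 and 0.92 for Vash1, and relative to GC deciles 1 of the 2 did. In ACE+ cells Pf4 had 904 CPM with periostin and 890 CPM with vehicle, and no gene of these 9 pathway lists reached 2-fold with periostin.

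Between the subsets, 3 of the 9 receptor genes were at least 2-fold lower and none as much higher in CD74+ cells with periostin, with 6 lower by any amount, and 1 was lower and 1 higher by 2-fold with vehicle. Pdgfra had 3.41 CPM in CD74+ cells and 17.0 CPM in ACE+ cells with periostin, a ratio of 0.201 (0.140 to 0.281), and 8.61 CPM in CD74+ cells and 19.1 CPM in ACE+ cells with vehicle, a ratio of 0.451 (0.368 to 0.552). Pdgfrb, the receptor of PDGF-BB on mural cells, had 9.96 CPM in CD74+ cells and 30.1 CPM in ACE+ cells with periostin, a ratio of 0.331 (0.268 to 0.406). With vehicle Pdgfrb was not at least 2-fold lower. Pdgfra is also among the fibroblast and osteogenic markers given above, and Pdgfrb is a marker of mural cells. Of 5 mural markers past the filter, 4 were lower and 1 higher in CD74+ cells with periostin. Of these, 1 was at least 2-fold lower, Pdgfrb. With vehicle 3 were lower and 2 higher. The part of fibroblasts and mural cells in the differences of Pdgfra and Pdgfrb was not tested. Egfr had 0.628 CPM in CD74+ cells and 7.70 CPM in ACE+ cells with periostin, a ratio of 0.0815 (0.0322 to 0.172). With vehicle, Nrp1, a VEGF co-receptor gene, was 2.72-fold (2.53 to 2.92) as high in CD74+ cells, at 176 CPM in CD74+ cells and 64.6 CPM in ACE+ cells. With periostin it had 118 CPM in CD74+ cells and 70.1 CPM in ACE+ cells, a ratio of 1.69 (1.57 to 1.82). Serpinb2 stood at 0.112 of its ACE+ level (0.0889 to 0.140) with vehicle and at 0.544 (0.459 to 0.642) with periostin. Lrp1 had 381 CPM in CD74+ cells and 339.9 CPM in ACE+ cells with periostin, and 717 CPM in CD74+ cells and 329.6 CPM in ACE+ cells with vehicle. Angpt1, the ligand of the receptor TIE2 that stabilises vessels, had 12.9 CPM in CD74+ cells and 57.0 CPM in ACE+ cells with periostin, and 24.9 CPM in CD74+ cells and 68.9 CPM in ACE+ cells with vehicle. Cxcl12, a chemokine gene, had 15.5 CPM in CD74+ cells and 50.04 CPM in ACE+ cells with periostin, and 19.7 CPM in CD74+ cells and 58.0 CPM in ACE+ cells with vehicle. Of the 10 further angiogenic ligands past the filter, 4 were at least 2-fold lower and 1 at least 2-fold higher in CD74+ cells with each treatment, beside 10.4% of all genes lower and 6.94% higher with periostin and 7.73% lower and 3.64% higher with vehicle. The higher gene with periostin was Tymp, the thymidine phosphorylase gene, at 29.7 CPM in CD74+ cells and 13.6 CPM in ACE+ cells, and relative to length deciles it fell short of 2-fold. The higher gene with vehicle was Nrg1, the neuregulin 1 gene, at 5.74 CPM in CD74+ cells and 1.32 CPM in ACE+ cells. Of the 9 angiogenesis inhibitors, 2 were at least 2-fold lower and none higher in CD74+ cells with periostin, 1 lower relative to length deciles, and 1 was lower and 1 higher with vehicle. Of the 10 hypoxia-response targets, 1 was at least 2-fold lower and 2 higher with periostin, and none with vehicle.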

How the data were processed

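RNA sequencing of 4 libraries, 1 per group, was grouped by the sample titles. Per the labels' protocols, RNA was extracted with Trizol and libraries were built with the TruSeq kit. HISAT2 and GRCm38 appear in the submitters' processing notes. Which counter, strand setting and annotation release were used is not stated in those notes or labels. The authors deposited 1 gene table per subset. Its signal columns were found to be counts over 1 size factor per library: 100% of the deposited signal values were whole multiples of 1 read within 0.001 read, so counts were recovered. The 2 tables shared 1 scaling, since the deposited mean equalled the mean of all 4 libraries for the 14398 genes in both. Reads of 3134 genes left out of 1 table were worked out from that mean, taking at least 1 of the 2 missing libraries to be at 0. The authors' deposited log2 fold changes were not used. Every per-sample column was used.

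The deposited signal was divided by the mean column total, 15573211, and multiplied by 1000000 (CPM). The planned unit was CPM, FPKM or TPM, or counts, and CPM was kept when scaled counts were found. Genes that had a row for both libraries and reached 1 CPM in either were compared on log2(CPM + 1). Ratios carry exact conditional binomial 95% intervals. Common effects of periostin and of subset were fitted with limma 3.58.1 (trend) on log2(CPM + 1), with edgeR 4.0.16 and DESeq2 1.42.0 size factors as alternatives, in R 4.3.3. The fits were also run on simulated data in which both subsets responded alike. That setting leaves out differing responses, so it cannot show how the fits behave on these data. Coordinates come from GENCODE M21, which holds 17384 of the gene identifiers. The 10 genes, the 9 pathway lists, the marker lists and the tests were chosen with earlier results of these data known. Named are all 10 genes and, from each pathway list, genes at least 2-fold changed in the comparison described, at most 4 per list, with others named after their values were seen. Alternatives were other pseudocounts, filters, scalings, length and GC deciles and, added after seeing the data, genes left out of a table. A count of 0 allows 3 reads, or 0.147 to 0.269 CPM.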

Additional observations from a re-analysis of the deposited data

Results flagged for a closer look

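Vegfb and Pgf had log2 changes with periostin of opposite sign in the 2 subsets. For Vegfb the change was -0.40 in CD74+ cells and 0.07 in ACE+ cells, a difference of -0.47, and in ACE+ cells its sign turned relative to the GC decile. For Pgf it was -0.24 in CD74+ cells and 0.00 in ACE+ cells, a difference of -0.24, and 3 other scalings turned the ACE+ sign. With 1 library per group the difference was not tested, and opposite signs were found for 46.4% of 13129 genes.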

How the results depend on the processing

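Of 70 gene results, 62 kept their sign under every alternative run, and none of the changes that reached 2-fold or passed a test changed sign. The fit of the periostin effect sets periostin against vehicle within each subset, with subset as a block, and the labels carry no replicate numbers by which libraries could be paired otherwise. In CD74+ cells 1 of the 10 genes, Ang, reached 2-fold with periostin. With 5 CPM added 0 did, and with a filter of at least 5 CPM, which leaves Ang out, 0 did. With 0.1 CPM added the count was 1 in place of 0, Ang, for periostin in ACE+ cells, and likewise 1, again Ang, for CD74+ over ACE+ cells with periostin and with vehicle. The periostin effect common to both subsets was called for 21 genes, and for 5 with edgeR and DESeq2 size factors, 7 with 0.1 CPM added, 10 with at least 5 CPM and 0 with no filter, where 980 genes had an unadjusted p under 0.05 and edgeR with TMM factors on the filtered genes called 20; the cause was not tested. Plaur and Vegfa passed the subset test in limma or edgeR under all 7 alternatives run for that fit, with adjusted p of 3.15e-05 to 0.000684 and 0.00293 to 0.0179. Length deciles, GC deciles and genes left out of a table were not among these alternatives. For all genes, the counts past 2-fold with periostin were 1656 in CD74+ cells, with 2494 and 335 at 0.1 and 5 CPM added, 982 with at least 5 CPM and 2513 with genes left out of a table included. In ACE+ cells they were 408, with 1218 and 28 at 0.1 and 5 CPM added and 139 with at least 5 CPM. Between the subsets they were 2374 with periostin, with 1028 at 5 CPM added and 3636 with left-out genes, and 1523 with vehicle, with 671 at 5 CPM added. Responses differed by 4-fold for 193 genes, with 615 and 11 at 0.1 and 5 CPM added, 84 with at least 5 CPM and 362 with left-out genes. Scaling to total reads moved the median of all genes between the subsets with periostin to -0.12 and the share of higher calls to 29.8%, against 40.0%. Depth limits Ang most, with 9 to 44 reads per library.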
